A study of Mus musculus with 36 samples.

Results

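The chromatin regions described here lie nearest to 33 genes of glycolysis, amino acid and lipid metabolism in mouse CD4 T cells, as read by ATAC-seq, an assay in which a transposase cuts open DNA and the cuts are counted. A region (peak) was assigned to a gene when its midpoint lay nearest to the start (TSS) of a protein-coding transcript of that gene in GENCODE on GRCm39, and it was called a promoter peak within 1 kb of that TSS and a distal peak otherwise. Of 71509 peaks, 272 met this rule, 39 of them promoter peaks and 233 distal peaks. At least 1 peak was found for 32 of the 33 genes, all but Pfkl, and 29 genes had a promoter peak. The starts of Pdk1, Slc1a5 and Odc1 lay inside wide peaks whose midpoints were more than 1 kb away, so these peaks stand among the distal ones. The nearest gene need not be the gene on which a region acts, and peaks of 1 gene share a locus.

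The study compared T cells that lack the heterochromatin protein HP1α or HP1γ with their wild-type (WT) counterparts, before and after a bone marrow allograft, with or without co-injected regulatory T cells (Treg). The HP1α knockout (KO) was a germline deletion of Hp1a made with CMV-cre, and its controls were +/+. The HP1γ KO carried loxP-flanked Hp1g alleles deleted by Cd4-cre, which is active from the thymus on in cells that have expressed CD4, and its controls were floxed without Cre. Both lines had a mixed 129/Sv and C57BL/6 background, and sex-matched littermates of 6 to 12 weeks were the cell donors. Naive cells were CD4+CD62L+CD44low cells of the spleen. The other cells (Tconv) were recovered from the spleen 3 weeks after lethally irradiated hosts, C57BL/6J or congenic CD45.1+ B6 mice, had received C57BL/6J and B6D2F1 bone marrow 1:1 with naive CD4 T cells, and were sorted as CD45.1-, donor-specific Vβ6+ cells. In the Treg groups, Treg expanded in culture from Foxp3-Thy1.1 mice, WT for both HP1 proteins, were injected together with them, and Thy1.1- cells were sorted. Each of the 12 groups (2 lines, 2 genotypes and 3 conditions) had 3 libraries of 50000 cells. All Tconv thus came from irradiated hosts and were sorted as Vβ6+, whereas naive cells came from untreated donors with no Vβ6 selection described. Naive cells and Tconv therefore differ in transfer, host, time and sorting together. The replicate numbers are not tied to animals in the labels, so p-values measure the spread between these libraries, which may be technical. In bulk cells, fewer cells with an open region and less opening per cell cannot be told apart.

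Resting naive T cells burn little fuel and mostly oxidise it, whereas activated T cells take up glucose through Slc2a1 and Slc2a3, trap it with hexokinases such as Hk2, and turn most of the pyruvate into lactate with Ldha. The transcription factors Myc and HIF-1α (Hif1a) are known to drive this switch, together with uptake of leucine by Slc7a5 with Slc3a2, of glutamine by Slc1a5 and of arginine by Slc7a1. Srebf1 and Srebf2 drive fatty acid and sterol synthesis, Fasn and Acaca make fatty acids, Cpt1a admits them to mitochondria for oxidation, and Odc1 makes polyamines. HP1 proteins bind histone H3 methylated at lysine 9 and help to keep heterochromatin silent.

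The sequences of 5 distal peaks are shown as 120 bases of the plus strand of GRCm39. The first 4 are all those called between KO and WT cells with Treg in both mouse lines, each shown with the peak's middle in the window. In the 300 bases at the middle, where motifs were searched, the Myc peak is the only one of these 4 with TGANTCA, the palindrome of AP-1 factors, in capitals. The last is a distal peak of Ldha called in HP1γ cells, shown beside its middle so that the window takes in CACGTG (capitals), the E-box that Myc and other factors can bind.
Pfkp -3.8 kb (chr13:6702712-6702831): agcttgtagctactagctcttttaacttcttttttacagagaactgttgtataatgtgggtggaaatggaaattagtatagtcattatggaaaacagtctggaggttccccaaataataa
Pfkfb3 +60.0 kb (chr2:11446462-11446581): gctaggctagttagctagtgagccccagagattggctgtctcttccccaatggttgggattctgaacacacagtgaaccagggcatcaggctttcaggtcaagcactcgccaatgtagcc
Myc +252.7 kb (chr15:62111940-62112059): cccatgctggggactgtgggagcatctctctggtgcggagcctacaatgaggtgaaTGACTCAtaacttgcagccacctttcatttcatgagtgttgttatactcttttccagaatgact
Hif1a -107.2 kb (chr12:73840932-73841051): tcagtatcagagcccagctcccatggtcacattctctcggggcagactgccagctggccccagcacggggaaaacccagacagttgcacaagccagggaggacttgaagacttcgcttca
Ldha -14.3 kb (chr7:46476596-46476715): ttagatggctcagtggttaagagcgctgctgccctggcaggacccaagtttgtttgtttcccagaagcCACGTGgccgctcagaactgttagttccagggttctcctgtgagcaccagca

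The names give the distance of a peak's midpoint from the nearest TSS of the gene, positive in the direction of transcription. The promoters of Hk2, the hexokinase induced on activation, and of Ldhb, the lactate dehydrogenase subunit of resting and oxidative tissues, moved in opposite directions between naive cells and Tconv. Their last 150 bases before the start in RefSeq (GRCm38.p6) follow, written in the direction of transcription, with each GGGCGG, the GC box of Sp factors, in capitals.
Hk2 (chr6:82774455-82774604, minus strand): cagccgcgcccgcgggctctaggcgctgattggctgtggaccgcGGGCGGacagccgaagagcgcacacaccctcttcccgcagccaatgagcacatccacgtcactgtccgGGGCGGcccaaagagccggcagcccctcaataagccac
Ldhb (chr6:142507958-142508107, minus strand): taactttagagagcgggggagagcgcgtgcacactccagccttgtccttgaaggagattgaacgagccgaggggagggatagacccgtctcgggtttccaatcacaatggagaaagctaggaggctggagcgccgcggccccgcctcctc

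The libraries held from 1.49 to 96.8 M reads in peaks, of which the peaks described here took 0.42 to 0.48%. The shallowest libraries were among HP1α Tconv with Treg, with 12.7, 1.49 and 3.20 M reads in WT replicates 1 to 3 and 50.7, 7.12 and 5.73 M in KO, against at least 19.4 M in the HP1γ line. For low enrichment the study dropped 3 of these, the third WT replicate and all KO replicates but the first, and the tests here drop them too, which leaves 2 WT libraries and 1 KO library. The values of dropped libraries are still given. In the library of 1.49 M reads, 36 of the 272 peaks were at 0. Accessibility does not check the deletions: the peaks that hold the TSS of Cbx5 (HP1α) and Cbx3 (HP1γ) differed by -0.11 to 0.13 on the log2 scale between KO and WT and none was called. The promoters of Cd3e, Cd3d, Cd3g and Cd4 were open in every library. The summed promoter level of the CD8 T cell marker Cd8b1 was 27.5 to 32.6 CPM in naive cells and 2.4 to 14.1 CPM elsewhere. The only B cell marker with a promoter peak, Pax5, stood at 1.7 to 3.1 CPM in naive cells, 4.2 to 7.7 CPM in Tconv and 3.9 to 21.5 CPM in Tconv with Treg.

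Levels are given as log2 CPM, reads scaled to the same library size on a log2 scale, so that a difference of 1 is a doubling. Per kb of peak, the most open promoters were those of Hk1 (5.42 log2 CPM per kb, mean of all 36 libraries), the hexokinase of most tissues, Slc7a1 (5.35) and Hif1a (5.15). Fasn, the fatty acid synthase, followed at 5.13 and the glycolytic aldolase Aldoa at 5.06. The 27 genes from Hk1 down to Slc2a3, at 3.44, lay within 2 log2 units, and apart from Cpt1a and Hk2, neighbours in the order differed by less than 0.29, the lowest value that the largest SD within a group took over the 272 peaks. Only Ppargc1a (1.76), the coactivator of mitochondrial biogenesis, and Pparg (0.87), a lipid-sensing nuclear receptor, stood clearly lower. These 2 and Ldhb also varied most: their 12 group means spanned 2.287, 4.77 and 2.25, and those of Hk2 1.60. For the other 25 promoters the span was 0.65 to 1.19.

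Group means of the strongest promoter peak follow for genes of each role, in log2 CPM (not per kb) and always in the order HP1α WT, HP1α KO, HP1γ WT and HP1γ KO, with n = 3 libraries and the lowest and highest SD of the 12 groups. The means of all 3 libraries are shown, left-out ones included. Slc2a1, the main glucose transporter, stood at 6.60, 6.56, 6.33 and 6.16 in naive cells, 6.22, 6.39, 6.52 and 6.42 in Tconv and 6.15, 5.77, 6.23 and 6.45 in Tconv with Treg (SD 0.02 to 0.50). Slc2a3, a glucose transporter of high affinity, stood at 5.67, 5.69, 5.41 and 5.31 in naive cells, 5.70, 5.70, 5.64 and 5.37 in Tconv and 5.004, 5.09, 5.28 and 4.62 in Tconv with Treg (SD 0.06 to 0.30). Neither promoter was called in any comparison. Hk2 stood at 5.21, 5.18, 4.88 and 4.99 in naive cells, 6.30, 6.48, 6.37 and 6.19 in Tconv and 5.90, 5.80, 5.97 and 6.08 in Tconv with Treg (SD 0.02 to 0.42), and was lower in all 4 naive groups than in any other group. Ldha stood at 6.44, 6.46, 6.16 and 6.14 in naive cells, 6.35, 6.63, 6.65 and 6.45 in Tconv and 5.69, 5.85, 6.23 and 6.42 in Tconv with Treg (SD 0.01 to 0.53) with no call.

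Of the regulators, Myc stood at 7.45, 7.43, 7.20 and 7.41 in naive cells, 6.84, 7.05, 6.78 and 6.69 in Tconv and 6.35, 6.54, 6.45 and 6.60 in Tconv with Treg (SD 0.02 to 0.41). Hif1a stood at 6.97, 6.90, 6.69 and 6.86 in naive cells, 6.64, 6.79, 6.74 and 6.78 in Tconv and 6.06, 6.19, 6.65 and 6.76 in Tconv with Treg (SD 0.02 to 0.55). Both promoters were open in naive cells already, and neither of these peaks was called anywhere. Slc7a5, the leucine transporter, stood at 6.88, 6.89, 6.75 and 6.72 in naive cells, 6.48, 6.75, 6.82 and 6.73 in Tconv and 6.04, 6.14, 6.57 and 6.72 in Tconv with Treg (SD 0.02 to 0.51). Odc1 had no promoter peak, and the peak of 11270 bases that holds its start stood at 7.44, 7.34, 7.30 and 7.27 in naive cells, 7.38, 7.35, 7.43 and 7.52 in Tconv and 7.25, 7.48, 7.39 and 7.53 in Tconv with Treg (SD 0.001 to 0.40). Neither was called. Of the lipid genes, Cpt1a stood at 6.39, 6.53, 6.10 and 6.08 in naive cells, 6.45, 6.74, 6.58 and 6.43 in Tconv and 5.90, 6.21, 6.26 and 6.50 in Tconv with Treg (SD 0.02 to 0.42). Srebf2, the sterol regulator, stood at 6.75, 6.72, 6.47 and 6.55 in naive cells, 6.39, 6.62, 6.57 and 6.61 in Tconv and 5.58, 6.06, 6.46 and 6.52 in Tconv with Treg (SD 0.02 to 0.46). In this set of strong promoters only Hk2 was called in any comparison.

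Between naive cells and Tconv, which differ in transfer, host, time and Vβ6 sorting together, promoters of the metabolic genes were called about as often as all promoters. A peak was called when edgeR's quasi-likelihood test gave a Benjamini-Hochberg adjusted p under 0.05 over all peaks and the log2 fold change was over 1 or under -1. In Tconv, 5 of the 39 promoter peaks passed as higher and 2 as lower in each of HP1α WT, HP1α KO and HP1γ WT cells, and 6 higher and 2 lower in HP1γ KO cells. Of all 13071 promoter peaks, 9.24% were called higher and 7.48% lower in HP1α WT cells, 9.20% and 7.34% in HP1α KO, 9.79% and 8.91% in HP1γ WT, and 8.85% and 7.69% in HP1γ KO cells. These 4 comparisons share no library. Called the same way in all 4 were 4 promoter peaks higher (Hk2, Pparg, a second Cpt1a peak and a second Hif1a peak) and 2 lower (Ldhb and Ppargc1a), that is 10.3% and 5.13% of 39, against 6.66% and 5.32% of all promoter peaks. Among cell markers, the promoter of Cd8b1 was called lower in all 4 comparisons, the Treg marker Foxp3 lower in all but HP1γ KO cells, the other Treg marker, Ikzf2, in none, 1 of 3 myeloid markers lower in HP1α WT and KO cells and Pax5 higher in both KO lines, and neither NK cell marker had a promoter peak. Their part in the results was not tested.

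The Hk2 promoter peak (chr6:82748651-82753180) stood at 4.86, 4.89 and 4.89 in the HP1γ WT naive libraries and at 6.14, 6.40 and 6.56 in WT Tconv. The groups did not overlap, and the log2 fold change was 1.49 ± 0.15 (adjusted p = 3.29e-08). It was 1.202 ± 0.16 (adjusted p = 2.17e-06) in HP1γ KO, 1.08 ± 0.17 (adjusted p = 2.57e-05) in HP1α WT and 1.25 ± 0.16 (adjusted p = 2.14e-06) in HP1α KO cells. The Ldhb promoter (chr6:142452511-142454480) moved the other way, from 5.61, 5.50 and 5.60 to 3.83, 3.29 and 3.42 in HP1γ WT cells. Its log2 fold changes were -2.21 and -1.97 in HP1α WT and KO cells and -2.03 and -1.82 in HP1γ WT and KO cells, all with an adjusted p of at most 1.69e-08. The promoter of Ldha, the subunit of glycolytic cells, was not called, with -0.07 and 0.10 in HP1α WT and KO cells and 0.49 and 0.31 in HP1γ WT and KO cells.

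Pparg opened from a nearly closed state. Its promoter peak (chr6:115337787-115338656) stood at -1.40, -2.77 and -2.09 in HP1γ WT naive cells and at 1.196, 2.53 and 2.11 in WT Tconv, with log2 fold changes of 3.61 and 2.81 in HP1α WT and KO cells and 4.24 and 1.93 in HP1γ WT and KO cells. The Ppargc1a promoter (chr5:51710791-51711620) fell, with -1.59 and -1.05 in HP1α WT and KO cells and -1.97 and -1.72 in HP1γ WT and KO cells, and the largest adjusted p of the 4 was 0.0067. A weaker peak of Cpt1a, 0.51 kb past a start (chr19:3384121-3384340), rose from -3.66, -3.36 and -3.01 to 1.196, 0.78 and -0.48 in HP1γ WT cells. Its log2 fold changes were 3.17 and 3.39 in HP1α WT and KO cells and 4.56 and 2.95 in HP1γ WT and KO cells, whereas the strong Cpt1a promoter peak was not called. A peak at a second Hif1a start (chr12:73947811-73948440) rose likewise, with 3.24 and 2.08 in HP1α WT and KO cells and 1.93 and 3.01 in HP1γ WT and KO cells.

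The remaining promoter calls were less even between the lines. Slc7a1 (the peak 0.45 kb past a start) was called in 3 of the 4 comparisons, with 1.31 and 1.09 in HP1α WT and KO cells and 0.995 and 1.06 in HP1γ WT and KO cells. A peak of Slc16a3, which exports lactate, 0.06 kb before a start, was called in the HP1γ line alone, with 0.60 and 0.66 in HP1α WT and KO cells and 1.32 and 1.34 in HP1γ WT and KO cells, and the difference between lines was not tested. The promoter peaks of Gapdh, Pgk1, Tpi1, Pkm, Aldoa, Pgam1 and Gpi1, enzymes of the core of glycolysis, were not called in any of these comparisons.

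**Figure D1:**
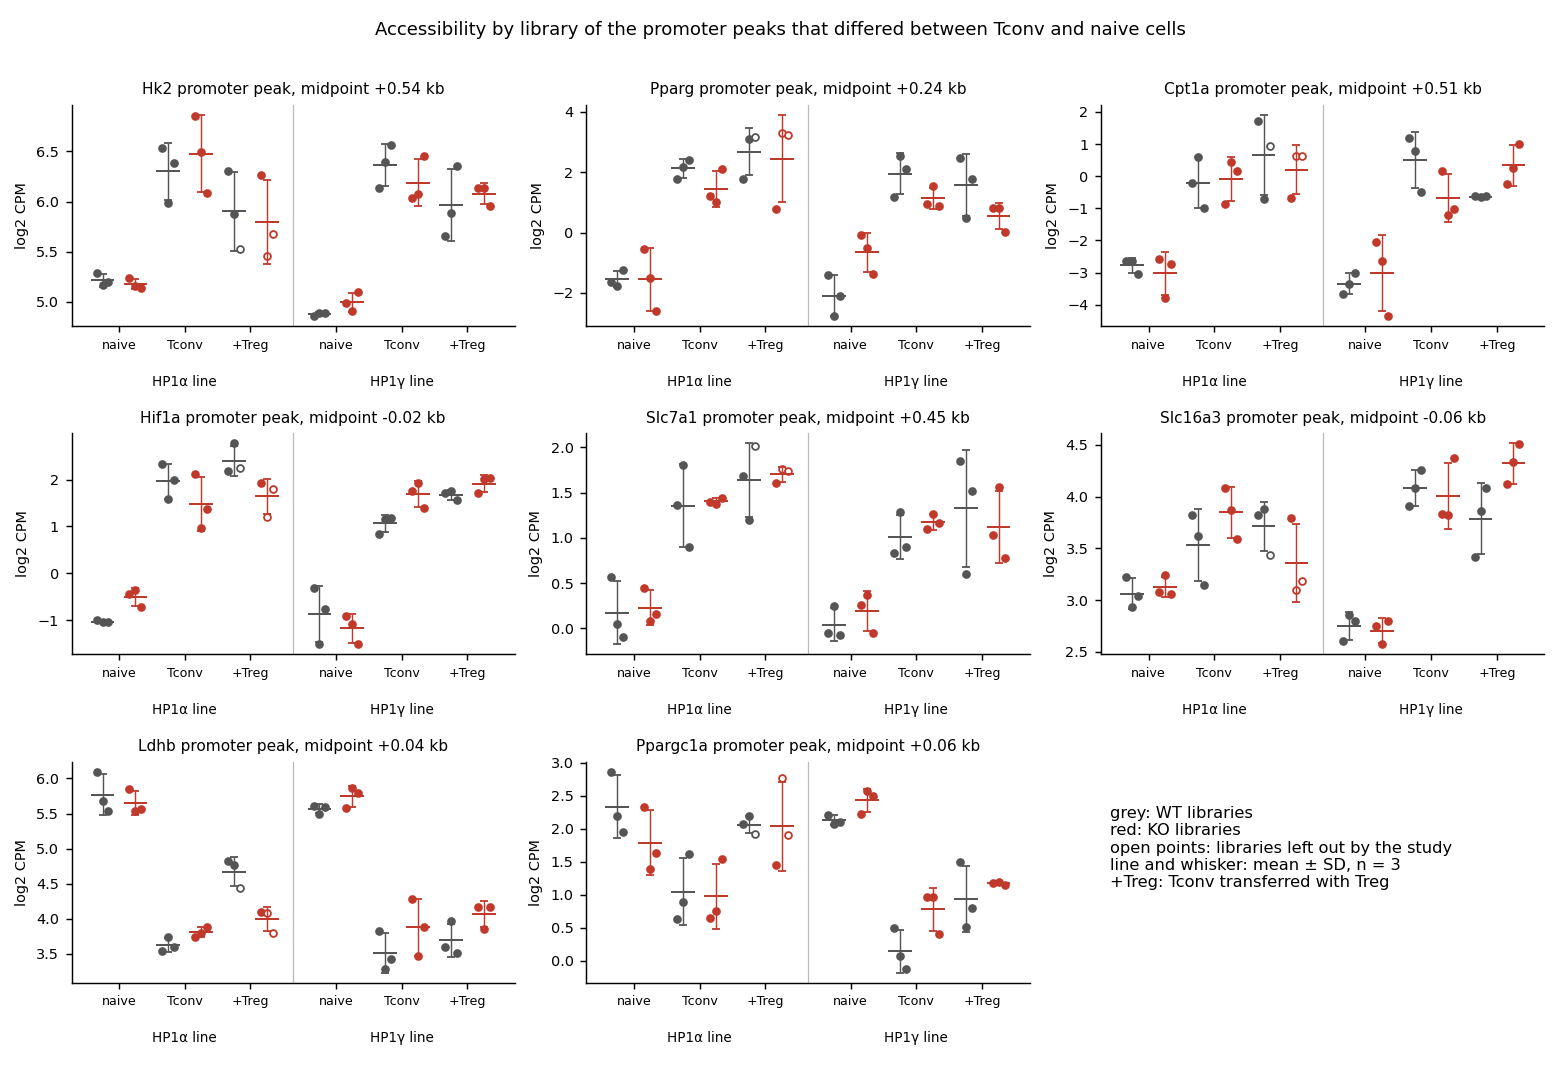
Accessibility in log2 CPM (vertical axis) of the 8 promoter peaks called between Tconv and naive cells, by line, condition and genotype on the horizontal axis, with each point a library (open where the study dropped it), lines and whiskers the mean ± SD of 3 libraries. Hk2 and Pparg points of Tconv sit above those of naive cells and Ldhb points sit below them in both lines.

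Distal regions moved far more often, and mostly towards opening. In HP1α WT cells 94 of the 233 distal peaks passed as higher in Tconv and 21 as lower, in HP1α KO cells 91 and 27, in HP1γ WT cells 89 and 36, and in HP1γ KO cells 77 and 35. Of all 58339 distal peaks, 28.4% were called higher and 19.8% lower in HP1α WT, 26.7% and 21.7% in HP1α KO, 27.8% and 24.9% in HP1γ WT, and 25.4% and 23.5% in HP1γ KO cells. In all 4 comparisons 66 of the 233 distal peaks (28.3%) were called higher and 19 (8.15%) lower, against 20.2% and 16.7% of all distal peaks. None of the 272 peaks was called in opposite directions in different comparisons of these 4. This was rare among all peaks too, with 2 of 13071 promoter and 14 of 58339 distal peaks. Within 50 kb of a TSS, where 137 of the distal peaks lie, 60, 61, 66 and 61 were called in either direction in HP1α WT, HP1α KO, HP1γ WT and HP1γ KO cells. Of all distal peaks (58339 in the HP1α line, 58338 in the HP1γ line), 28113, 28231, 30733 and 28553 were called in either direction.

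The regulators took a large share of these peaks. Hif1a had 25 distal peaks, of which 17 were called higher and 0 lower in all 4 comparisons. Myc had 68, of which 13 were called higher and 9 lower. Of the Myc distal peaks 64 lay over 50 kb from its start and 36 inside Pvt1 (chr15:61888639-62249945), a long noncoding RNA gene beside Myc, so most are far from the gene. Among glycolysis genes, 21 of 82 distal peaks were called higher and 7 lower in all 4 comparisons, with 6 of 18 higher for Pfkfb3, which makes the activator of phosphofructokinase, 5 of 13 for Pfkp, a phosphofructokinase, and 4 of 7 for Hk2. Amino acid and polyamine genes had 11 of 38 higher and 1 lower, 4 of them at Odc1, and lipid genes 4 of 20 higher and 2 lower, with all 3 distal peaks of Pparg among the higher ones.

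**Figure D2:**
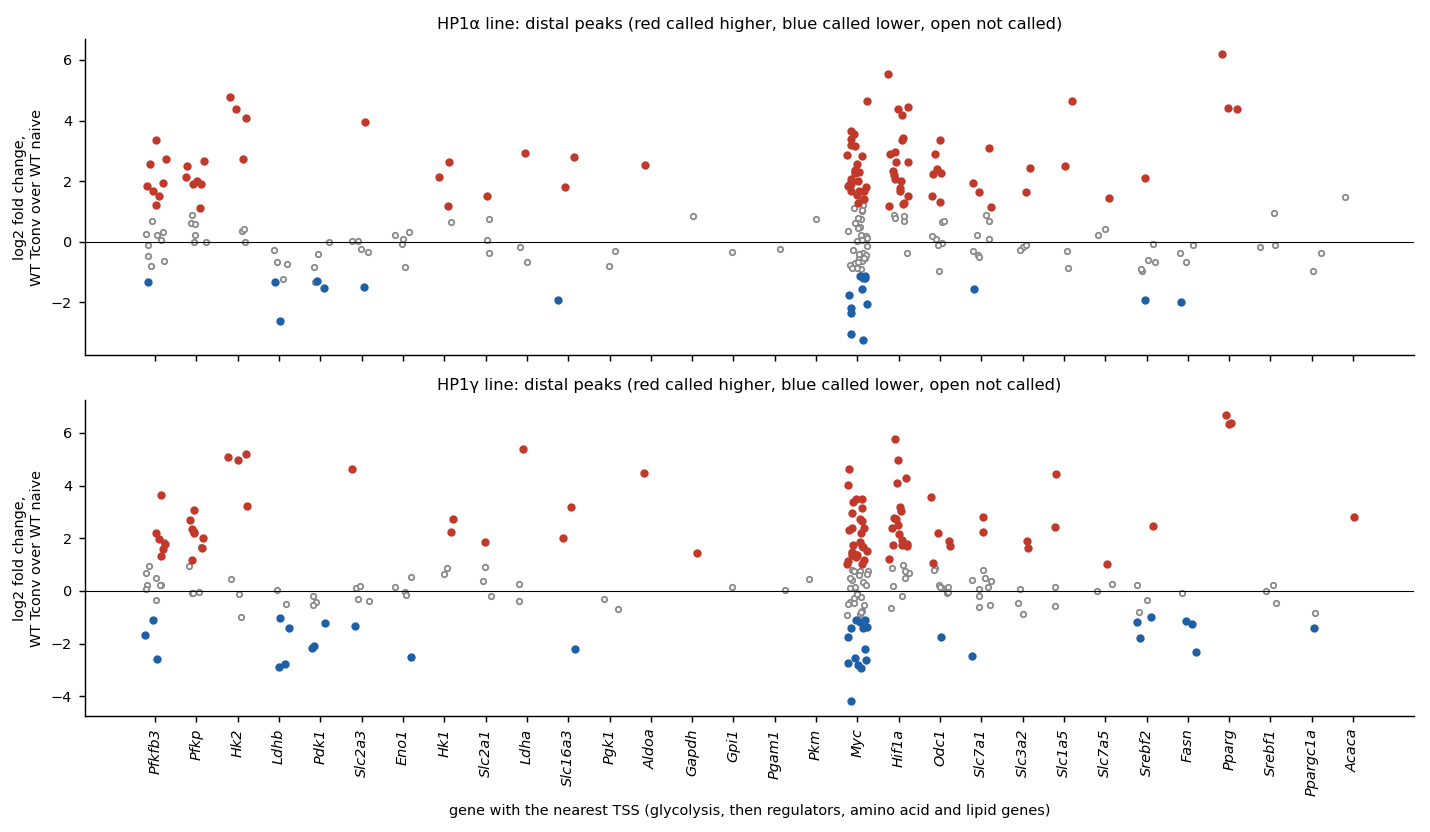
Log2 fold change of each distal peak between WT Tconv and WT naive cells (vertical axis) by gene (horizontal axis), in the HP1α line above and the HP1γ line below, with each point a peak, red called higher, blue called lower and open not called. Called peaks of Hif1a and Pfkp lie above 0 only, those of Myc and Pfkfb3 on both sides.

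Inside Hk2, intronic peaks went from almost closed to open. The peak 19.5 kb past the start (chr6:82729781-82731220) stood at -2.12, -0.59 and -0.57 in HP1α WT naive cells and at 4.15, 3.66 and 3.41 in WT Tconv, a log2 fold change of 4.79 ± 0.28 (adjusted p = 3.39e-10). That at 28.2 kb (chr6:82721111-82722460) stood at -0.17, -0.49 and -0.61 in HP1γ WT naive cells and at 4.28, 4.52 and 4.64 in WT Tconv, with 4.98 ± 0.27 (adjusted p = 1.88e-11). The 4 intronic peaks between 19.5 and 28.2 kb were called higher in all 4 comparisons, and the peaks at 32.6, 58.6 and -47.5 kb were called higher in none.

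Slc2a3 and Pfkp had such peaks too. The Slc2a3 peak at -15.5 kb (chr6:122735276-122736652, in an intron) stood at 0.03, -0.54 and 0.13 in HP1γ WT naive cells and 4.40, 4.59 and 4.50 in WT Tconv, with a log2 fold change of 4.64 ± 0.24 (adjusted p = 1.13e-11). Only 2 kb away, the peak at -17.5 kb went the other way in all 4 comparisons, with -1.48 and -1.79 in HP1α WT and KO cells and -1.31 and -1.54 in HP1γ WT and KO cells. The Pfkp peak at 7.7 kb (chr13:6678381-6679600) rose from -0.14, -0.10 and -0.47 to 2.81, 2.60 and 2.87 in HP1γ WT cells, with 3.06 ± 0.18 (adjusted p = 4.43e-11) there and 2.80 ± 0.20 (adjusted p = 1.39e-09) in HP1γ KO cells. Of the Pfkp distal peaks none was called lower in any of the 4.

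At the regulators, the Hif1a peak at -84.1 kb (chr12:73862981-73865170) stood at -0.70, -1.04 and -1.203 in HP1α WT naive cells and 4.70, 4.03 and 3.98 in WT Tconv, a log2 fold change of 5.52 ± 0.30 (adjusted p = 2.14e-10). In the gene itself, the peak at 3.1 kb (chr12:73950561-73952030, intron) changed by 4.19 ± 0.25 (adjusted p = 4.45e-10) in HP1α WT and 4.35 ± 0.24 (adjusted p = 1.53e-10) in HP1α KO cells. Around Myc both directions occurred. The peak at 791.8 kb (chr15:62650711-62651470) changed by 4.65 ± 0.25 (adjusted p = 1.38e-10) and that at 202.6 kb by 3.18 ± 0.19 (adjusted p = 3.85e-10) (HP1α WT and KO cells), and that at 56.5 kb by 4.03 ± 0.25 (adjusted p = 7.42e-11) in HP1γ WT cells. The Myc peak at -503.2 kb (chr15:61353391-61354570) fell in all 4 comparisons, from 3.87, 3.78 and 3.77 to 0.04, -0.37 and -0.94 in HP1γ WT cells, with -3.05 and -3.49 in HP1α WT and KO cells and -4.19 and -3.54 in HP1γ WT and KO cells. The peak at -366.5 kb fell too, with -2.202 and -2.76 in HP1α WT and KO cells and -2.81 and -2.66 in HP1γ WT and KO cells.

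**Figure D3:**
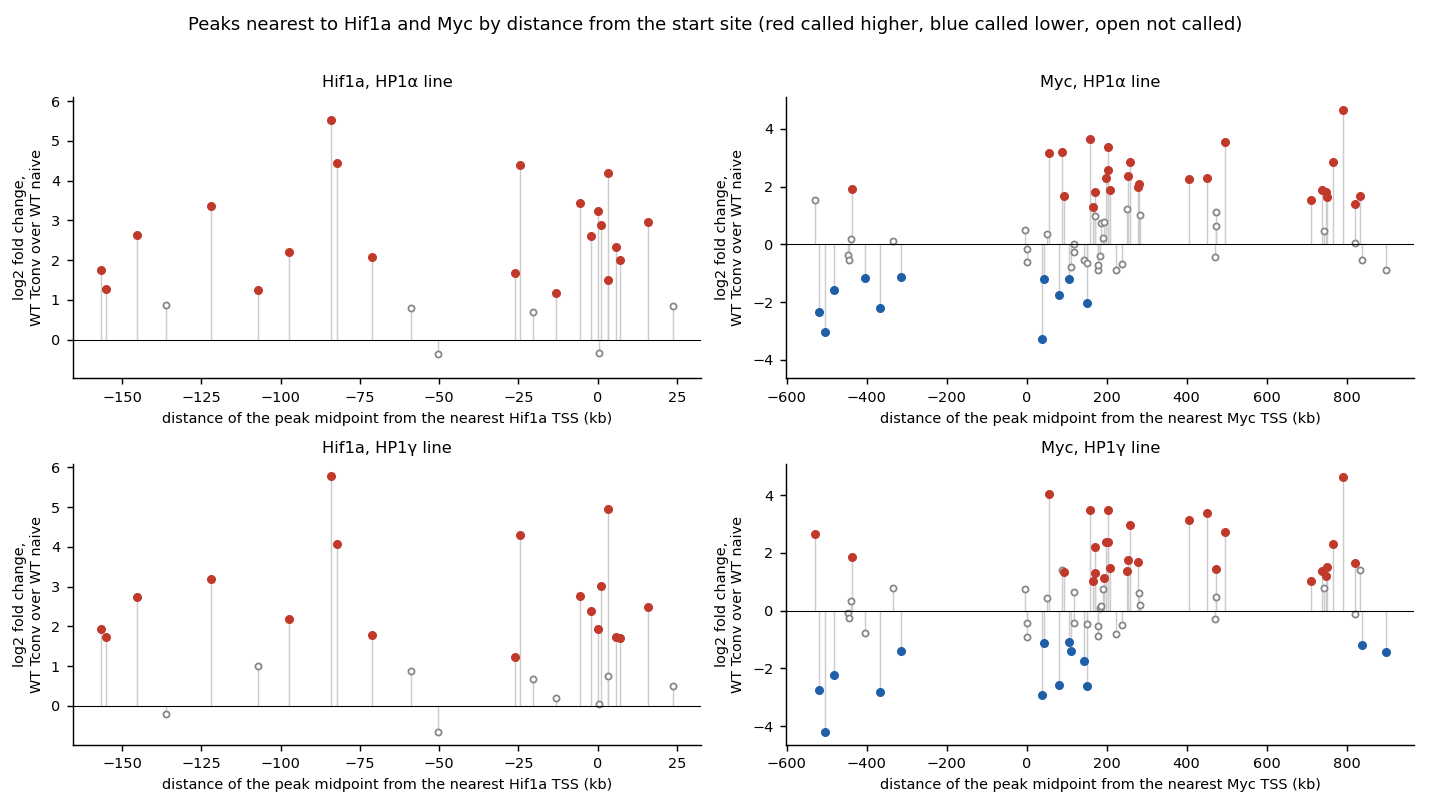
Log2 fold change between WT Tconv and WT naive cells of the peaks of Hif1a and Myc (vertical axis) by distance of the midpoint from the nearest start in kb (horizontal axis) in both lines, with each point a peak, red called higher, blue called lower and open not called. Called peaks of Hif1a lie above 0, and those of Myc, up to more than 500 kb away, on both sides.

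Distal peaks closed at Ldhb, Pdk1 and Slc7a1. The Ldhb peak at -19.1 kb (chr6:142473291-142474180) changed with its promoter, by -2.61 and -2.12 in HP1α WT and KO cells and -2.88 and -2.53 in HP1γ WT and KO cells. Pdk1, which limits the conversion of pyruvate to acetyl-CoA by inhibiting pyruvate dehydrogenase, had 2 such peaks before its start. That at -9.5 kb changed by -1.54 and -1.65 in HP1α WT and KO cells and -2.09 and -1.82 in HP1γ WT and KO cells. That at -6.4 kb changed by -1.29 and -1.03 in HP1α WT and KO cells and -1.23 and -1.27 in HP1γ WT and KO cells. The Slc7a1 intronic peak at 4.3 kb (chr5:148324441-148326180) fell from 4.92, 4.80 and 5.03 to 2.32, 2.43 and 2.61 in HP1γ WT cells, by -2.48 ± 0.13 (adjusted p = 9.73e-12), and by -2.30 ± 0.14 (adjusted p = 2.05e-10) in HP1γ KO cells. A peak 3.8 kb past Gapdh, in an exon of Iffo1, rose by 1.55 ± 0.13 (adjusted p = 6.37e-09) in HP1γ KO cells.

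Amino acid, polyamine and lipid genes also had distal peaks that opened in all 4 comparisons, shown here for genes picked after their counts were known. The glutamine transporter gene Slc1a5 had an intronic peak at 13.6 kb (chr7:16528631-16529080) that stood at -2.48, -3.78 and -2.88 in HP1γ WT naive cells and 0.71, 1.07 and 1.37 in WT Tconv, with log2 fold changes of 4.66 and 3.82 in HP1α WT and KO cells and 4.45 and 3.15 in HP1γ WT and KO cells. Of the Odc1 distal peaks, the 4 that did so lay together upstream, between -93.2 and -74.3 kb, and that at -93.2 kb (chr12:17500921-17501380) changed by 3.37 and 3.12 in HP1α WT and KO cells and 3.56 and 2.84 in HP1γ WT and KO cells. The peak across the Odc1 start, by contrast, changed by -0.10 and -0.08 in HP1α WT and KO cells and 0.13 and 0.25 in HP1γ WT and KO cells and was not called. The 3 distal peaks of Pparg all lie in its introns, and that at 18.6 kb (chr6:115417427-115417896) stood at -3.22, -4.04 and -3.85 in HP1γ WT naive cells and 1.34, 2.31 and 1.70 in WT Tconv, with 6.20 and 5.37 in HP1α WT and KO cells and 6.33 and 3.03 in HP1γ WT and KO cells. No distal peak of Srebf1, Acaca or Fasn was called higher in all 4. The peak at -13.3 kb from Fasn, in an intron of Ccdc57, was called lower in all 4, with -1.99 and -1.66 in HP1α WT and KO cells and -2.30 and -1.42 in HP1γ WT and KO cells, and so was the Srebf2 peak at -6.8 kb, with -1.91 and -1.98 in HP1α WT and KO cells and -1.78 and -1.57 in HP1γ WT and KO cells.

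Other genes of the same pathways, which are not among the 33, were counted beside them. In HP1α WT cells, 6 of 43 distal peaks of other glycolysis genes (such as Hk3, Pfkm and Eno2) were called higher in Tconv and 10 lower. Other amino acid genes had 18 higher and 12 lower of 79, and other lipid genes 19 higher and 16 lower of 76. In HP1γ WT cells these counts were 5 and 11, 17 and 16, and 21 and 18. Among the other glycolysis genes lower calls thus outnumbered higher ones, unlike among the 33 genes, and the difference between the lists was not tested. These shares are to be read against the 28.4% and 19.8% (HP1α WT) and 27.8% and 24.9% (HP1γ WT) of all distal peaks given above. Of promoter peaks of these other genes, 0 were called higher and 1 lower of 15 (glycolysis), 1 and 2 of 22 (amino acid) and 2 and 0 of 19 (lipid) in HP1α WT cells, where 9.24% and 7.48% of all promoter peaks were.

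Short motifs were counted on both strands. In the 300 bases at the middle of each distal peak, TGANTCA was found in 46 of 233 (19.7%), against 14.7% of all distal peaks. Among distal peaks called higher in HP1γ WT Tconv it was in 25 of 89 (28.1%), against 22.9% of all such peaks, and among those called lower in 4 of 36 (11.1%), against 9.83%. In HP1α WT cells the shares were 27.7% of 94 higher and 4.76% of 21 lower, against 23.9% and 8.86%. In HP1α KO cells they were 28.6% and 11.1%, against 23.7% and 9.33%, and in HP1γ KO cells 24.7% and 5.71%, against 22.6% and 9.83%. In the comparisons with Treg the shares of higher peaks lay below those of all distal peaks called higher. TGANTCA was in 4 of the 20 peaks higher in HP1γ KO than WT cells with Treg, against 31.9% of all such peaks, and in 3 of the 18 lower ones (16.7%, against 10.9%). For the Treg effect in HP1γ KO cells it was in 4 of 17 higher peaks (23.5%, against 32.1%) and 1 of 5 lower ones (against 10.3%), and in HP1α WT cells in 5 of 17 higher (29.4%, against 30.4%) and 1 of 6 lower ones (16.7%, against 11.2%). In promoter sequences from RefSeq, which runs from 250 bases before to 50 after the start, 29 of the 33 genes were matched. GGGCGG was found in 19 of them (65.5%, against 35.9% of 27025 promoters), ACGTG, part of the HIF site, in 11 (37.9%, against 19.7%), and CACGTG, which contains ACGTG, in 2, Ldha and Hif1a (6.90%, against 7.24%). GCGTG, also part of the HIF site, was found in 12 (41.4%, against 32.5%), TGANTCA in 1 (3.45%, against 7.93%), and neither TCACNCCAC nor CCGGAAGT in any, against 1.22% and 4% of all promoters. A match is a description of letters and not of binding.

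Between HP1α KO and WT, none of the 272 peaks was called in naive cells or in Tconv, where 0.00559% and 0.0210% of all peaks were. At an unadjusted p under 0.05, 3 and 17 of the 272 passed in edgeR, and DESeq2 called 0 in both. In HP1γ naive cells 0 were called too, with 0.140% of all peaks called and 17 of 272 at an unadjusted p under 0.05, but DESeq2 called 8, all higher in KO. The Hk2 promoter stood at 6.53, 5.99 and 6.38 in HP1α WT Tconv and 6.85, 6.49 and 6.09 in KO Tconv, and these libraries overlap.

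In Tconv without Treg, 6 distal peaks differed between HP1γ KO and WT by this test, 2 higher and 4 lower, which is 2.21% against 3.35% of all peaks. The largest was the Ldha peak at -14.3 kb (chr7:46476381-46476750, intergenic), shown above with its E-box. It stood at 2.47, 2.34 and 0.74 in WT Tconv and at -0.68, -0.07 and -0.81 in KO Tconv, a log2 fold change of -2.71 ± 0.39 (adjusted p = 3.12e-04). Without overlap between the groups, WT was the higher. With Treg it stood at -0.45, 0.16 and -0.61 in WT and -3.32, -2.16 and -1.28 in KO cells, and it was the only peak called between HP1γ WT Tconv with and without Treg, which shares the WT Tconv libraries, lower with Treg by -2.36 ± 0.40 (adjusted p = 0.0308). The Pfkp peaks at -3.8 kb and 4.9 kb changed by 1.70 ± 0.49 (adjusted p = 0.0466) and -1.52 ± 0.41 (adjusted p = 0.0357), which are opposite directions. The Hif1a peak at -5.6 kb changed by 1.13 ± 0.25 (adjusted p = 0.0119), the Myc peak at 171.6 kb, inside Pvt1, by -1.27 ± 0.30 (adjusted p = 0.0174) and the Pparg intronic peak at 18.6 kb by -1.77 ± 0.50 (adjusted p = 0.0362). With only the 2 groups compared in the fit no peak was called, edgeR's older quasi-likelihood method called 2, and leaving out 1 library gave 2 to 13, with 13 without KO replicate 1, 10 without WT replicate 3, 3 without KO replicate 2 and 2 without KO replicate 3 or WT replicate 2.

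With Treg, the HP1γ comparison gave the most KO calls, 39 of 272 (14.3%), where 8482 of all 71508 peaks were called in either direction. In KO 20 distal peaks were above the thresholds and 18 below, against 7.45% and 6.28% of all distal peaks, and 1 of 39 promoter peaks was called, lower, against 3.35% of all promoter peaks in either direction. By role, 7 of 82 distal peaks of glycolysis genes were higher and 5 lower, 6 and 1 of 25 for Hif1a, 6 and 9 of 68 for Myc, 1 and 0 of 38 for amino acid and polyamine genes, and 0 and 3 of 20 for lipid genes. Among other pathway genes, 2 higher and 3 lower of 43, 5 and 2 of 79, and 4 and 4 of 76 were called for glycolysis, amino acids and lipids.

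The promoter was a second peak of Eno1, the enolase, 0.64 kb before a start (chr4:150326791-150327820). It stood at 2.81, 3.27 and 2.37 in WT and 1.15, 1.62 and 1.39 in KO cells with Treg, with a log2 fold change of -1.54 ± 0.35 (adjusted p = 0.0054). The groups did not overlap, and the strong Eno1 promoter peak was not called.

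Of the distal peaks more open in KO cells, those of smallest p were at Pfkp, Pfkfb3 and Hif1a. The Pfkp peak at -3.8 kb (chr13:6702411-6703130) stood at 0.74, 0.09 and 0.85 in WT and 3.38, 2.41 and 3.11 in KO cells with Treg, a log2 fold change of 2.49 ± 0.36 (adjusted p = 2.54e-04). The Pfkfb3 peak at 60.0 kb (chr2:11445971-11447070) stood at 0.68, 0.72 and 1.38 and 2.92, 1.91 and 3.27, with 1.91 ± 0.30 (adjusted p = 4.62e-04). Before Hif1a, the peak at -13.1 kb stood at 4.11, 3.74 and 3.72 in WT and 5.19, 4.81 and 5.15 in KO cells, with 1.16 ± 0.16 (adjusted p = 1.42e-04), and that at -5.6 kb changed by 1.39 ± 0.20 (adjusted p = 1.94e-04). These 4 peaks were picked for their smallest p in this comparison. That every KO library lay above every WT library at them is therefore not separate evidence of a difference.

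Of the distal peaks lower in KO, those of smallest p were at Myc and Srebf2, and 5 were at glycolysis genes, at Ldhb, Pfkfb3, Pgam1 and Slc2a3. The Myc peaks at 171.6 kb and 170.4 kb, inside Pvt1, changed by -1.83 ± 0.41 (adjusted p = 0.0054) and -1.06 ± 0.25 (adjusted p = 0.0065), and that at -334.0 kb by -1.51 ± 0.39 (adjusted p = 0.0108). At 171.6 kb the libraries stood at -0.06, 0.84 and 0.85 in WT and -1.05, -1.34 and -1.37 in KO cells. The Srebf2 intronic peak at 8.6 kb (chr15:82040281-82041420) stood at 2.99, 3.76 and 2.88 in WT and 1.02, 2.66 and 2.26 in KO cells, with -1.21 ± 0.29 (adjusted p = 0.008). The Itgam promoter, 1 of 3 myeloid markers with a promoter peak, was called lower in KO in the same comparison, and its part in these results was not tested. Offsets for GC content turned the split of calls from 20 higher and 19 lower to 32 and 14, a fit of the 2 groups alone left 14 calls, and without KO replicate 1 or WT replicate 2 there were 12 and 14. With the replicate numbers as a block there were 49 calls.

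In the HP1α line the same comparison rested on 1 KO and 2 WT libraries, so that SE and p take the spread from the other groups and assume that the lone KO library varies like them. It gave 4 called peaks, all distal and lower in KO, which is 1.47% against 1.63% of all peaks. The Pfkp peak at -3.8 kb stood at 3.60, 2.99 and 2.51 in WT replicates 1 to 3 and 1.21, 1.72 and 1.68 in KO replicates 1 to 3 with Treg. The log2 fold change over the kept libraries was -2.37 ± 0.39 (adjusted p = 0.0049) and with all 18 libraries of the line -1.98 (adjusted p = 0.0059). The Pfkfb3 peak at 60.0 kb stood at 3.96, 4.18 and 1.74 in WT and 0.98, 2.195 and 2.50 in KO, with -3.07 ± 0.54 (adjusted p = 0.0074) and, with all libraries, -2.17 (adjusted p = 0.0432). The Myc peak at 252.7 kb, inside Pvt1, changed by -2.06 ± 0.38 (adjusted p = 0.0106) and the Hif1a peak at -107.2 kb by -1.82 ± 0.40 (adjusted p = 0.0298). At these peaks, picked because they were called, the kept KO library lay below both kept WT libraries, which is not separate evidence of a difference. The summed T cell markers stood at 117.8 to 171.9 CPM in WT and 175.6 to 263.0 CPM in KO cells with Treg, and Pax5 at 13.9 to 21.5 and 5.5 to 18.7 CPM, with no marker called, and their part in the result was not tested. No peak was called without WT replicate 1, with sequencing depth in the fit, with only the 2 groups in the fit or with edgeR's older quasi-likelihood method, and DESeq2 called 8.

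The effect of co-injected Treg on Tconv is given first for HP1α WT cells. Of the 272 peaks 24 were called: 1 of 39 promoter peaks, higher (4.03% of all promoter peaks were called in either direction), and 17 distal peaks higher and 6 lower, against 5.41% and 1.98% of all distal peaks. The promoter was that of Ldhb, which stood at 3.54, 3.74 and 3.60 without Treg and 4.82, 4.76 and 4.44 with Treg, a log2 fold change of 1.21 ± 0.27 (adjusted p = 0.0109). These libraries without Treg are those compared with naive cells above, so the Ldhb fold changes of both comparisons share them.

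The Pfkp and Pfkfb3 peaks named above led the distal calls. This comparison and that of HP1α KO and WT cells with Treg share the WT libraries with Treg. High values in these libraries make a peak both higher with Treg and lower in KO, so the recurrence is not independent. The Pfkp peak at -3.8 kb stood at 0.09, 1.15 and 1.01 without Treg, against the values with Treg given above, and rose by 3.08 ± 0.37 (adjusted p = 1.23e-04). The Pfkfb3 peak at 60.0 kb stood at -0.12, 1.15 and 1.55 without Treg and rose by 3.59 ± 0.50 (adjusted p = 3.93e-04). The Myc peak at 252.7 kb stood at 1.52, 1.60 and 1.30 without and 3.36, 3.50 and 2.96 with Treg, with 1.89 ± 0.34 (adjusted p = 0.0025), and the Hif1a peak at -155.1 kb, in an intron of Prkch, changed by 1.66 ± 0.32 (adjusted p = 0.004). Lower with Treg were the Srebf2 peak at 8.6 kb by -2.21 ± 0.50 (adjusted p = 0.0105), the Pparg peak at 18.6 kb by -3.07 ± 0.88 (adjusted p = 0.0333), the Myc peak at -314.7 kb by -2.69 ± 0.78 (adjusted p = 0.0399) and the Hif1a peak at -84.1 kb by -1.31 ± 0.38 (adjusted p = 0.0401). Of these 4, the peaks of Srebf2, Pparg and Hif1a had been called higher, and that of Myc lower, in all 4 comparisons of Tconv with naive cells, of which that in HP1α WT cells shares the libraries without Treg.

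Markers of other cells moved with this comparison. The Pax5 promoter, the B cell marker, was called higher with Treg, at 13.9 to 21.5 CPM against 4.9 to 7.4 CPM without. The summed T cell markers fell from 220.4 to 266.4 CPM without to 117.8 to 171.9 CPM with Treg, with 1 of 4 called lower, and of the 2 Treg markers Ikzf2 was called higher, by 1.06 ± 0.22 on the log2 scale (adjusted p = 0.0061), while Foxp3 changed by -0.01 ± 0.62 (adjusted p = 0.994). The sum of both was 39.0 to 50.8 CPM without and 61.9 to 101.3 CPM with Treg. The part of these in the result was not tested. No peak was called without WT replicate 1 with Treg, which holds 12.7 M reads, whereas 12 were called when replicate 2 with Treg was dropped, 6 when WT Tconv replicate 1 was dropped and 7 with depth in the fit.

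In KO cells of the HP1α line only 1 library with Treg was kept, the spread again comes from the other groups, and the only call was the Pparg peak at 18.6 kb, lower with Treg by -2.03 ± 0.46 (adjusted p = 0.0444), against 0.548% of all peaks. It stood at 1.67, 1.13 and 1.29 in KO Tconv and -0.58, 1.21 and 0.63 with Treg, in replicates 1 to 3. The kept library with Treg lies below all those without, whereas of the dropped ones the second lies within their range and the third below it. The call was lost under DESeq2, under the older method and with only these groups in the fit, and leaving out KO Tconv replicate 1 gave 3 calls. In HP1γ WT cells the Ldha peak at -14.3 kb was the only call (0.137% of all peaks), and it was lost without any of 4 libraries (WT Tconv replicates 1 and 2, WT with Treg replicates 1 and 3). With the replicate block 3 peaks were called.

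In HP1γ KO cells 23 peaks were called. Of the promoter peaks the Eno1 peak at -0.64 kb was called lower with Treg, by -1.24 ± 0.35 (adjusted p = 0.022), against 1.78% of all promoter peaks in either direction. Of the distal peaks 17 were higher and 5 lower, against 7.16% and 2.44% of all. The Pfkfb3 peak at 60.0 kb stood at 0.54, 0.94 and 0.70 without Treg and rose by 2.06 ± 0.29 (adjusted p = 2.36e-04). The Hif1a peak at -5.6 kb rose by 1.22 ± 0.18 (adjusted p = 3.32e-04), the Hk1 intronic peak at 4.6 kb by 1.62 ± 0.25 (adjusted p = 4.24e-04) and the Slc7a1 intronic peak at -1.7 kb by 1.15 ± 0.20 (adjusted p = 0.0012). The Pgam1 intronic peak at 5.2 kb changed by -1.24 ± 0.25 (adjusted p = 0.0032), the Myc peaks at -314.7 and 822.0 kb by -1.25 ± 0.33 (adjusted p = 0.0155) and -1.08 ± 0.30 (adjusted p = 0.0223), and the Srebf2 peak at 8.6 kb by -1.08 ± 0.28 (adjusted p = 0.0159). This comparison shares its KO libraries with Treg with the KO and WT comparison above. Without KO replicate 1 with Treg 8 peaks were called, without replicate 2 with Treg 42, and 1 in a fit of these groups alone. The Itgam promoter was called lower with Treg here too.

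**Figure D4:**
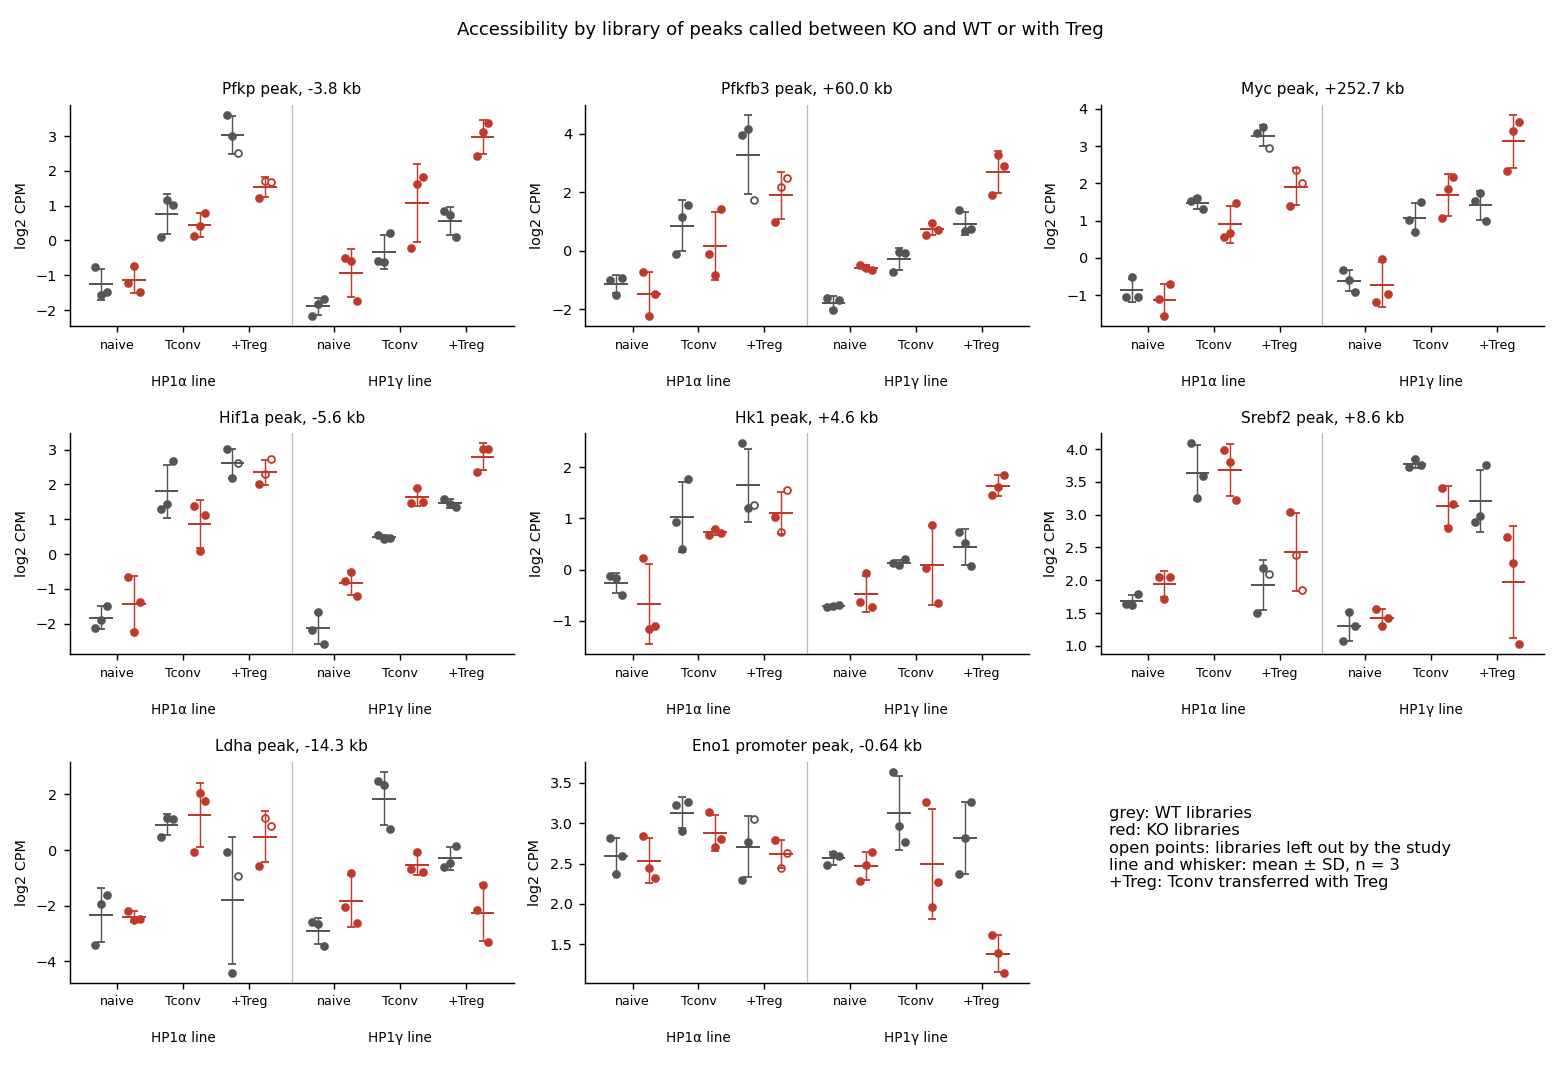
Accessibility in log2 CPM (vertical axis) of 8 peaks called between KO and WT cells or with Treg, by line, condition and genotype on the horizontal axis, with each point a library (open where the study dropped it), lines and whiskers the mean ± SD of 3 libraries. With Treg, the Pfkp peak at -3.8 kb and the Pfkfb3 peak at 60.0 kb stand higher in KO than in WT libraries of the HP1γ line and lower in the kept KO than in the kept WT libraries of the HP1α line.

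Whether the effect of Treg differed between KO and WT was tested as an interaction within each line. In HP1α cells 0 of 272 peaks were called (0.0461% of all peaks), 31 had an unadjusted p under 0.05 in edgeR, and DESeq2 called 1. In HP1γ cells 0 were called (0.00140% of all), 49 had an unadjusted p under 0.05 and DESeq2 called 5. A Treg effect called in 1 genotype was therefore not shown to differ from that in the other.

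The difference between the lines in the KO effect with Treg, HP1γ minus HP1α, was called at 39 of 272 peaks, of which 32 were higher and 7 lower. The 1 promoter peak was the weaker Cpt1a peak, 0.51 kb past a start, against 8.09% of all promoter peaks in either direction, and among distal peaks 31 were higher and 7 lower, against 7.56% and 4.24% of all. By role these were 8 and 1 distal peaks of glycolysis genes, 8 and 0 of Hif1a, 11 and 4 of Myc, 4 and 0 of amino acid and polyamine genes and 0 and 2 of lipid genes. For Pfkfb3 at 60.0 kb the KO effect was 1.91 ± 0.30 (adjusted p = 4.62e-04) in the HP1γ line and -3.07 ± 0.54 (adjusted p = 0.0074) in the HP1α line, and the difference was 4.90 ± 0.65 (adjusted p = 1.45e-05). For Pfkp at -3.8 kb the difference was 4.77 ± 0.67 (adjusted p = 3.17e-05). The Myc peak at 252.7 kb and the Hif1a peak at -107.2 kb, also lower in HP1α KO cells, were called higher in HP1γ KO cells with Treg, by 1.78 ± 0.33 (adjusted p = 0.0016) and 1.09 ± 0.28 (adjusted p = 0.0108). The share of all peaks with opposite changes in the lines is not given here, so this is not shown to be particular to these genes. The Cpt1a peak stood at -0.66, -0.63 and -0.61 in HP1γ WT, 1.01, -0.26 and 0.25 in HP1γ KO, 1.72, -0.71 and 0.95 in HP1α WT and -0.67, 0.64 and 0.63 in HP1α KO cells with Treg, and the difference was 3.41 ± 0.94 (adjusted p = 0.0133). The HP1α line was represented by 3 libraries, and without its WT replicate 1 no peak was called. In a fit of these groups alone 10 were called, and with all 18 HP1α libraries 39, of which 35 were higher and 4 lower. The promoters of Pax5 and of Ikzf2, but not that of Foxp3, were called higher in the same test, and their part was not tested.

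**Figure D5:**
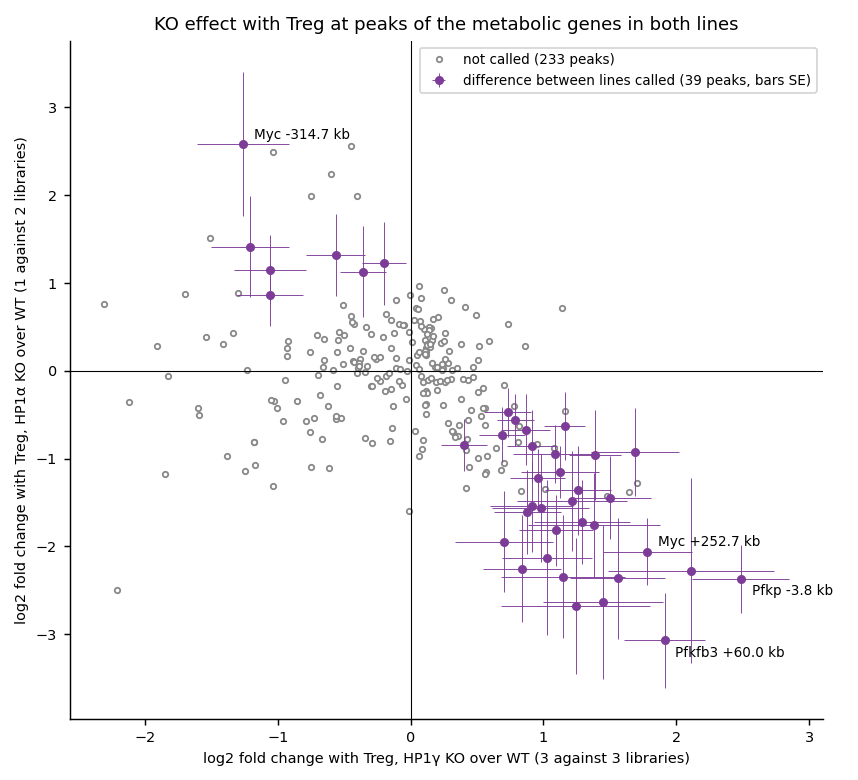
Log2 fold change between KO and WT cells with Treg of the 272 peaks in the HP1γ line (horizontal axis) and the HP1α line (vertical axis), with each point a peak and bars of 1 SE on the 39 peaks called for the difference between lines. The Pfkp peak at -3.8 kb and the Pfkfb3 peak at 60.0 kb lie to the right of 0 and below it.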

How the data were processed

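ATAC-seq was analysed in 36 libraries. Per the study's methods, the authors trimmed reads (Trim Galore 0.6.7), aligned them to GRCm39 with BWA-MEM 2, kept pairs of mapping quality 30, called peaks in each sample with HMMRATAC, merged them and deposited raw counts per peak (featureCounts 2.0.3), with no normalization. Reads overlapping neighbouring peaks can count in both. Of 71512 peaks, 3 had no width and were left out. Peaks were assigned with GENCODE M39, and exons and introns refer to protein-coding genes. The 33 genes, the other pathway genes, the markers and the motifs were chosen with earlier results of these data known. The result of a further cell marker is not reported here.

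Each line was fitted with all its groups in edgeR 4.0.16 (R 4.3.3: filterByExpr, TMM, quasi-likelihood F test, two-sided, Benjamini-Hochberg adjustment over all peaks), HP1α on 15 libraries, HP1γ on 18, and the difference between lines on both together. Fold changes are KO over WT, Tconv over naive or with over without Treg, ± SE, in 17 comparisons, and levels are log2 CPM with 2 counts added as prior. Replicates varied by 26.6% (HP1α) and 22.2% (HP1γ), as edgeR's biological coefficient of variation. The study used edgeR, and which of its tests is not given in the sources used here. The quasi-likelihood method of edgeR before version 4 was tried as an alternative chosen after seeing the data. No replicate pair agreed within sampling noise. Only the HP1γ fit was tested on simulated data, with the same spread for all peaks, and the outcome is not given here. The HP1α fit and that of both lines were not simulated. Peaks named were, in each comparison, up to 3 promoter and 4 distal called peaks of smallest p in each direction, plus the strongest promoter of 10 genes. Other peaks named, such as the Slc2a3 peak at -17.5 kb and the remaining intronic peaks of Hk2, were chosen after their values were seen.

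Libraries of the same number deviated together (correlation over 0.1 in all 3 pairs) in 3 comparisons: HP1α naive cells of both genotypes (0.24 to 0.49), HP1γ cells of both genotypes with Treg (0.15 to 0.32) and HP1γ WT Tconv of both conditions (0.20 to 0.29). What a replicate number marks is not in the labels. Depth, 1.49 to 96.8 M reads in peaks, limits the precision of HP1α libraries with Treg most.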

Additional observations from a re-analysis of the deposited data

Results flagged for a closer look

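The difference between the lines in the KO effect with Treg, HP1γ minus HP1α, passed its test at 39 peaks. Peaks across the whole series passed this test too, at the shares given in the Results. The difference is therefore not shown to be particular to these genes. Values of the named peaks follow as differences on the log2 scale, and the HP1α side rests on 1 KO and 2 WT libraries. Without the first WT library with Treg of that line no difference was called. No group had more than 3 libraries, so no library was tested for standing apart from its group.

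Among glycolysis genes the difference was 4.772 for the Pfkp peak at -3.8 kb, 4.895 for the Pfkfb3 peak at 60.0 kb and 2.538 for the Hk1 peak at 4.6 kb. At the Hk1 peak, KO minus WT was 1.26 ± 0.25 in HP1γ cells and -1.36 ± 0.51 in HP1α cells, the latter with an adjusted p of 0.187.

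For Hif1a the difference was 2.826 at -107.2 kb, 1.967 at -155.1 kb, 2.262 at -5.6 kb and 1.694 at -13.1 kb, all positive. Of the Myc distal peaks 11 had a called difference above 0 and 4 below. It was 3.755 at 252.7 kb, 1.132 at 202.6 kb and 1.167 at 56.5 kb, and negative at 3 other peaks, -2.302 at 791.8 kb, -3.937 at -314.7 kb and -2.015 at 170.4 kb. At the peak at -314.7 kb, KO minus WT was -1.26 ± 0.34 in HP1γ cells (adjusted p = 0.0153) and 2.58 ± 0.82 in HP1α cells (adjusted p = 0.117).

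The Slc7a1 peak at -1.7 kb differed by 2.092, with 0.96 ± 0.21 in HP1γ and -1.22 ± 0.33 in HP1α cells. The Cpt1a promoter peak at 0.51 kb differed by 3.407, although neither line alone passed the test (adjusted p = 0.0795 in HP1γ and 0.0878 in HP1α cells). The Srebf2 peak at 8.6 kb differed by -2.709, with -1.21 ± 0.29 in HP1γ and 1.41 ± 0.57 in HP1α cells.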

How the results depend on the processing

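The 100 named peak and comparison pairs gave 1625 values under the alternatives, of which 1468 kept their direction and side of the threshold, 157 kept the direction but lost the call and 0 reversed. Counts of called peaks moved as follows, and the cause was not tested except where an alternative tests fewer peaks or libraries. Within 50 kb of a start, fewer peaks (promoter and distal together) are tested: Tconv against naive gave 67 (HP1α WT), 68 (HP1α KO), 73 (HP1γ WT) and 69 (HP1γ KO), KO against WT with Treg 1 (HP1α) and 15 (HP1γ), the Treg effect 10 in HP1α WT and 9 in HP1γ KO, and the difference between lines 16. DESeq2 1.42.0 gave 8 for HP1α KO against WT with Treg, 0 for Treg in HP1α KO, 1 for the HP1α interaction, 8 for HP1γ naive KO against WT, 4 for Treg in HP1γ WT and 5 for the HP1γ interaction. In fits of the compared groups alone, counts were 0 (HP1α KO against WT with Treg), 14 (Treg in HP1α WT), 0 (Treg in HP1α KO), 4 (HP1γ naive KO against WT), 0 (HP1γ KO against WT Tconv), 14 (HP1γ KO against WT with Treg), 0 (Treg in HP1γ WT), 1 (Treg in HP1γ KO) and 10 (between lines). The older quasi-likelihood method, chosen after seeing the data, gave 0 for HP1α KO against WT with Treg, 0 for Treg in HP1α KO, 2 for HP1γ KO against WT in naive cells and 2 in Tconv. Loess offsets on abundance gave 15 for Treg in HP1α WT, 0 in HP1α KO and 4 in HP1γ WT, depth as a covariate 0 for HP1α KO against WT with Treg, 7 for Treg in HP1α WT and 0 in HP1γ WT, library size alone 2 for Treg in HP1γ WT, and all 18 HP1α libraries 2 for Treg in HP1α KO.

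Leaving out 1 library at a time gave 0 to 3 calls for HP1α KO against WT Tconv (3 without KO replicate 1), 0 to 4 with Treg, 0 to 26 for Treg in HP1α WT and 1 to 3 in KO, 2 to 13 for HP1γ KO against WT Tconv, 12 to 57 with Treg (57 without KO replicate 2), 8 to 42 for Treg in HP1γ KO and 0 to 3 in WT, 0 to 2 for the HP1γ interaction (2 without KO replicate 2 with Treg) and 0 to 50 between lines. The only kept HP1α KO library with Treg could not be left out. With replicate number as a block, Treg in HP1γ WT gave 3 calls and HP1γ KO against WT with Treg 49, and it changed no other count by over 1.5 times. This block could not be fitted for HP1α KO against WT with Treg, Treg in HP1α KO, the HP1α interaction and the difference between lines. The split of higher and lower calls moved from 20 and 19 to 32 and 14 with GC offsets and 28 and 15 with loess offsets (HP1γ KO against WT with Treg), from 99 and 23 to 77 and 32 with loess offsets (HP1α WT Tconv against naive), and from 18 and 6 to 13 and 2 with loess and 17 and 3 with GC offsets (Treg in HP1α WT). The median over all peaks moved by at most 0.20 on the log2 scale, with library size alone.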
